A study of Arabidopsis thaliana with 30 samples.

Results

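The genes described here are 3 beta-tubulin genes, TUB1 (AT1G75780), TUB5 (AT1G20010) and TUB6 (AT5G12250), and the alpha-tubulin gene TUA6 (AT4G14960), in root tips, root stumps left by surgical removal of the tip, and a root section of Arabidopsis thaliana. Each was taken as the probe sets that the platform's table pairs with that gene and no other, which gave 1 probe set a gene, 4 of the 22746 measured, and 4 of 13356 genes with such a probe set (262978_at for TUB1, 261230_at for TUB5, 250317_at for TUB6 and 245270_at for TUA6). The genes were chosen by measured values from these same arrays. TUB1 and TUB5 had been singled out for a lower signal in the tip at 4 dpg than in the stump at 0 h, and TUB5 also for a lower signal in the stump at 22 h than at 0 h. For TUB6 and TUA6 the sources used here do not record which contrast it was. For this reason the differences of the 4 genes are described with their standard errors, and a test is given for TUB1 and TUB5 in only 2 comparisons whose arrays entered neither of those choices.

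Alpha- and beta-tubulin pair into the dimer from which microtubules are built, and plants make both from families of closely related genes whose proteins differ in little. In growing root cells, microtubules beneath the plasma membrane guide the laying down of cellulose and so the direction in which the cell expands. In dividing cells the same dimers form the preprophase band, the spindle and the phragmoplast. A root tip holds root cap, stem cells and dividing cells at its end, and cells further from the end leave division and elongate. TUB1 is known as a beta-tubulin of roots, TUB6 as one whose transcript is lowered by cold, and TUA6 as the alpha-tubulin widely fused to fluorescent protein to make microtubules visible.

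The 30 ATH1 arrays were made from wild-type Col-0 seedlings in 8 groups. Seedlings aged 4 dpg gave 130 µm of uncut tip (4 arrays) or, after that tip had been excised, 70 µm of stump collected at 0 h, 5 h and 13 h (4 arrays each) and at 22 h (5 arrays). Seedlings aged 8 dpg gave the uncut tip (3 arrays) and a stump (3 arrays). A section cut between 270 and 340 µm and harvested at once made up the last group (3 arrays), and its age is not given. Titles print these lengths in mm, and the protocol gives the tip and stump lengths in µm, which is the unit used here. At least 25 pieces were pooled for each array. The labels do not say that pools came from separate sowings, so a p-value measures the spread between these arrays. The stump at 8 dpg carries labels in conflict, since its title gives a recut at 0 h and its source name a harvest 192 hours after the first cut.

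Signals are MAS5 values on a linear scale, deposited already scaled, with trimmed means of 246.5 to 248.6 over the arrays. Array medians ran from 66.1 to 141.8, and 4 arrays had a median above 120: array 1 of the tip at 4 dpg, arrays 1 and 2 of the stump at 0 h and array 1 of the stump at 22 h. The 3 section arrays had medians of 66.1 to 73.5. A second set of 3 stump arrays, array 1 at 13 h and arrays 2 and 3 at 22 h, stood apart by a signal above 500 for EXPA7, an expansin gene of root hair cells. Of the cell type markers listed for checking the tissue, only 2 of the 6 for root hair and epidermis (EXPA7 and EXPA18) had a probe set of 1 gene, and none of the markers for root cap, stem cell niche, ground tissue, phloem, xylem or pericycle did. The labelled positions along the root could therefore not be checked against defining markers. No 2 arrays held the same values, and the highest correlation between arrays was 0.976.

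All 4 genes were highest in the section. TUB1 read 2743.9, 3339.3 and 4033 on the 3 section arrays, a mean of 3372 ± 645 (SD, n = 3). TUB5 read 2581.2, 2713.6 and 3051.5, a mean of 2782 ± 243. Every section array stood above all 27 other arrays for both genes. TUB6 read 2125.9, 2644.1 and 2912.2, a mean of 2561 ± 400. TUA6 read 3933.9, 4954.1 and 4500.1, a mean of 4463 ± 511. For these genes too, no array from any other group reached the lowest section array. Over the whole array, 3.67% of probe sets (835 of 22746) had every section array above all others. The margin between the lowest section array and the highest other array was 1.11-fold for TUB5, 1.39-fold for TUB1 and 1.66-fold for TUB6. In pooled tissue pieces such as these, fewer cells of a type and less RNA per cell cannot be told apart.

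**Figure D1:**
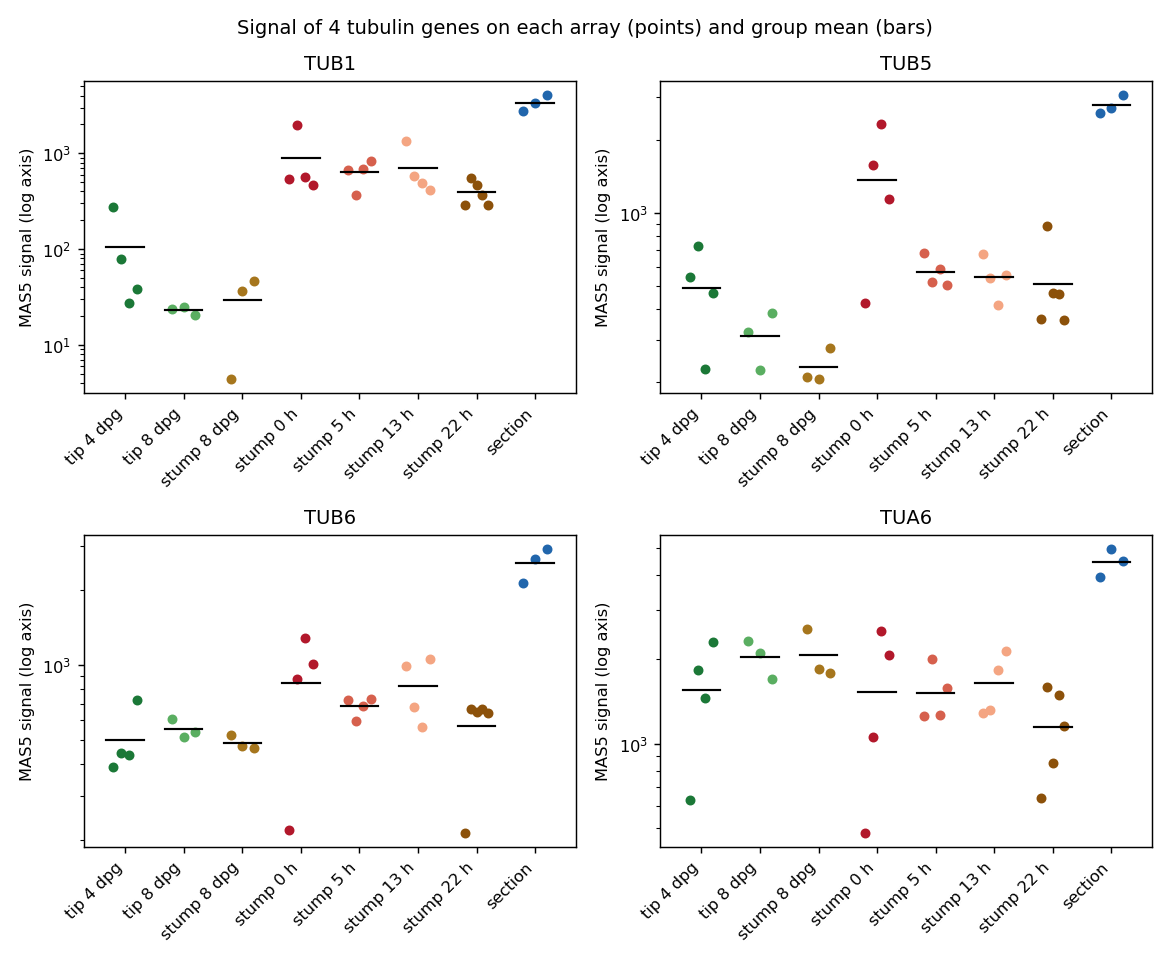
Each panel plots the MAS5 signal of 1 gene (log axis) on every array as points, with a bar at the group mean, for the 8 groups along the horizontal axis. The 3 section arrays lie above all other arrays in each panel, and TUA6 spans 3.89-fold in group means. TUB1 has its lowest group means at 8 dpg, where every array is under 50, as are arrays of the 4 dpg tip at 27.2 and 38.2.

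TUB1 had the widest range of the 4. In the tip at 4 dpg it read 277.1, 78.9, 27.2 and 38.2 on the 4 arrays, a mean of 105 ± 117 (SD, n = 4). In the stump just below, collected at 0 h, it read 541.3, 1972, 565.1 and 467.6, a mean of 886 ± 725. The lowest stump array was above the highest tip array, and array 1 of the tip, one of the 4 arrays of high median signal, was the highest of its group. The mean ratio of stump to tip was 8.41, and that of section to stump at 0 h was 3.8. On the log2(signal + 32) scale the tip at 4 dpg minus the stump at 0 h was -2.81 ± 0.415 (SE), in the contrast by which TUB1 was chosen. In that comparison 2.17% of all probe sets were called, where called means a limma adjusted p under 0.05 and a log2 difference of at least 1 in size.

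TUB1 was at its lowest at 8 dpg. It read 23.8, 25.1 and 20.5 in the tip (23.1 ± 2, SD, n = 3) and 4.4, 36.7 and 46.9 in the stump of that age (29.3 ± 22). The 2 groups overlapped, and in both TUB1 lay below the median signal of its array, at the 3.67 to 39.1 percentile of probe sets. Signals this dim carry little information on their order, and the pseudocount shrinks differences between them. The tip minus the stump at 8 dpg was -0.08 ± 0.479 on the log2 scale (limma adjusted p = 1). All arrays of the tip at 8 dpg were also below every array of the tip at 4 dpg, and the difference of 8 dpg minus 4 dpg was -0.99 ± 0.448. Without array 1 of the 4 dpg tip this difference was -0.49.

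TUB5 had a similar order of groups with smaller steps. In the tip at 4 dpg it read 544.9, 727.5, 226 and 465.8 (491 ± 208, SD, n = 4), and in the stump at 0 h 422.7, 1574.6, 2326.3 and 1135.2 (1365 ± 798). The groups overlapped, because array 1 of the stump, the array with the highest median signal of all 30, was below 3 of the 4 tip arrays. The other 3 stump arrays were above the whole tip group. The tip minus the stump at 0 h was -1.29 ± 0.335, again a contrast that chose the gene, and became -1.75 without stump array 1 and -0.96 without stump array 3. At 8 dpg TUB5 read 322, 225.4 and 386.2 in the tip (311 ± 81, n = 3) and 209.6, 206 and 276 in the stump (231 ± 39). Those groups overlapped, and their difference was 0.37 ± 0.387 (limma adjusted p = 1). In the comparison of tip and stump at 8 dpg 0% of probe sets were called (0 of 22746 by limma, with 238 at an unadjusted p under 0.05, and 39 called when arrays were weighted by quality).

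TUB6 differed less between tip and stump. It read 390.9, 445.9, 437.4 and 723.6 in the tip at 4 dpg (499 ± 151, SD, n = 4) and 217.9, 877.2, 1280.4 and 1004.8 in the stump at 0 h (845 ± 451). The 3 stump arrays other than array 1 were above every tip array, and stump array 1 was below every tip array. The difference of tip minus stump was -0.53 ± 0.341, and became -1.05 without stump array 1 and -0.26 without stump array 3. At 8 dpg TUB6 read 608.8, 515.8 and 538 in the tip (554 ± 49, n = 3) and 525.5, 476.3 and 465.6 in the stump (489 ± 32). The 2 overlapped, and both lay within the range of the 4 dpg tip.

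TUA6 had nearly the same mean in tip and stump. It read 630.2, 1837.8, 1457.8 and 2301.8 in the tip at 4 dpg (1557 ± 708, SD, n = 4) and 479.8, 1055.3, 2525.9 and 2073.9 in the stump at 0 h (1534 ± 934). The ranges overlapped, the mean ratio of stump to tip was 0.985, and array 1 was the lowest of each group. The tip minus the stump was 0.13 ± 0.361, and -0.31 without the 4 arrays of high median signal. At 8 dpg TUA6 read 2329.6, 2104.5 and 1701.5 in the tip (2045 ± 318, n = 3) and 2555.9, 1847.8 and 1789 in the stump (2064 ± 427). These 2 groups overlapped and differed by -0.0061 ± 0.417 on the log2 scale. Here TUA6 parted from the beta-tubulin genes TUB1 and TUB5, whose lowest 2 group means were at 8 dpg, while those of TUA6 at 8 dpg were second only to the section.

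Set in order of their group means, only the section was separate from its neighbour for all 4 genes. For TUB1 the stump at 22 h was also separate from the next group down, the tip at 4 dpg, with a lowest array of 290 against a highest of 277.1. Every other pair of neighbours in the 4 orders overlapped. The highest group mean was 12.1 times the lowest for TUB5, 5.24 times for TUB6 and 3.89 times for TUA6. For TUB1 the ratio came to 146, but its lowest group, the tip at 8 dpg, was too dim for this ratio to be a measured size. Against the tip at 8 dpg the section mean was 8.94-fold for TUB5, 4.62-fold for TUB6 and 2.18-fold for TUA6. Against the tip at 4 dpg the ratios were 32 for TUB1, 5.67 for TUB5, 5.13 for TUB6 and 2.87 for TUA6, and 3 of the 4 TUB1 values in that tip were below the median of their array.

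The log2 differences ranked the genes the same way at 8 dpg. The tip at 8 dpg minus the section was -5.93 ± 0.479 for TUB1, -3.06 ± 0.387 for TUB5, -2.14 ± 0.393 for TUB6 and -1.12 ± 0.417 for TUA6. The median of the 4 was -2.6, against 0.05 over all probe sets, in a comparison that called 17.3% of them. The stump at 8 dpg minus the section gave -5.85, -3.43, -2.3 and -1.11 in that order of genes, with the same standard errors. Its median was -2.87, and 17.8% of all probe sets were called. Both comparisons share the section arrays. The size of the TUB1 values depends on the pseudocount, since TUB1 was dim at 8 dpg: the tip minus the section was -7.11 with a pseudocount of 1 and -5.28 with 64.

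Against the stump at 0 h the ranking was different. The section minus that stump was 2.14 ± 0.448 for TUB1, 1.24 ± 0.362 for TUB5, 1.79 ± 0.368 for TUB6 and 1.77 ± 0.39 for TUA6. The median was 1.78 against -0.23 over all probe sets, and 10.2% of probe sets were called. The all-probe-set median of this comparison moved to -0.03 with quantile normalization and 0.18 with median centring, and all 4 differences were positive under each scaling. Without the 4 arrays of high median signal the differences were 2.62 for TUB1, 0.76 for TUB5, 1.14 for TUB6 and 0.95 for TUA6. Without stump array 1 alone TUB5 differed by 0.77, TUB6 by 1.26 and TUA6 by 1.31.

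**Figure D2:**
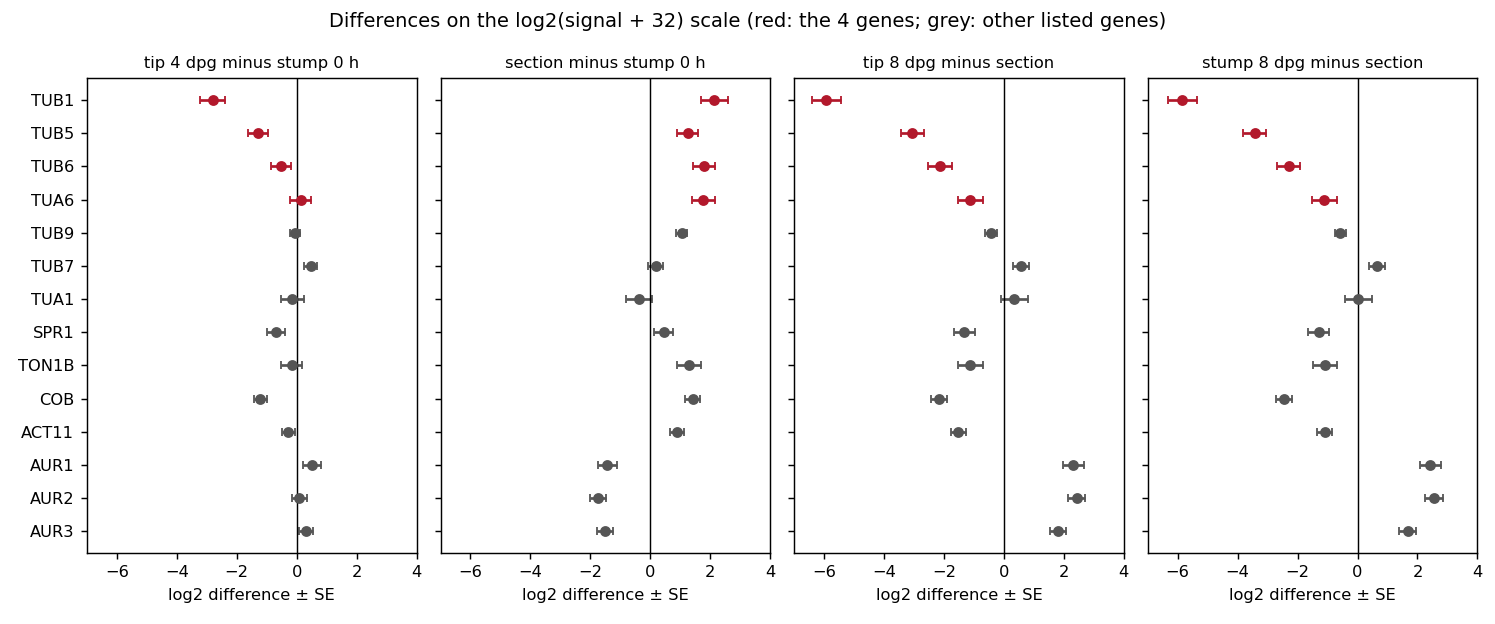
The 4 panels plot log2 differences on the log2(signal + 32) scale (horizontal axis, points with SE bars) for the 4 tubulin genes in red and other listed genes in grey. TUB1 lies farthest to the left in both comparisons of 8 dpg tissue with the section, at -5.93 and -5.85, while the Aurora kinase genes AUR1, AUR2 and AUR3 lie to the right.

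The stump was followed for 22 hours after the tip was excised. TUB1 read 669.6, 365.4, 682.5 and 831.6 at 5 h (637 ± 196, SD, n = 4), and 1342.1, 583.5, 492.4 and 411.6 at 13 h (707 ± 429). At 22 h it read 291.3, 557, 469.1, 368.9 and 290 (395 ± 116, n = 5). All 3 times overlapped the stump at 0 h, with log2 differences from it of -0.25 ± 0.415, -0.2 ± 0.415 and -0.88 ± 0.394. Array 2 of the stump at 0 h, which read 1972, had a large part in these values: without it they were 0.21, 0.26 and -0.42. TUB1 at 22 h was still above every array of the tip at 4 dpg, with a lowest array of 290 against a highest of 277.1. The group means on the log2 scale differed by 1.93 ± 0.394, in a comparison that called 3.43% of probe sets.

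TUB5 in the stump read 680, 519.1, 584.4 and 502.2 at 5 h (571 ± 81, SD, n = 4) and 679.3, 536.4, 415.3 and 551.6 at 13 h (546 ± 108). At 22 h it read 364.3, 885.6, 467.7, 464.7 and 362 (509 ± 217, n = 5). All values after 0 h were below the 3 upper arrays of the stump at 0 h, the lowest of which read 1135.2, while array 1 at 0 h, at 422.7, lay among them. The differences from 0 h were -0.99 ± 0.335 at 5 h, -1.06 ± 0.335 at 13 h and -1.21 ± 0.318 at 22 h, the last being a contrast that chose the gene. Those at 5 h and 13 h share the 0 h arrays with the contrasts that chose TUB5, so they are not independent of that choice. Without stump array 1 at 0 h the differences at 5 h, 13 h and 22 h were -1.45, -1.53 and -1.68, and without stump array 3 they were -0.66, -0.73 and -0.89. The share of all probe sets called was 2.63% at 5 h, 1.98% at 13 h and 1.47% at 22 h. At each of these times TUB5 overlapped the range of the 4 dpg tip, and at 22 h it differed from the tip by 0.08 ± 0.318.

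Between 5 h and 13 h, a comparison that used neither the tip nor the stump at 0 h, neither gene passed the test. TUB1 differed by 0.05 ± 0.415 (limma adjusted p = 0.995) and TUB5 by -0.07 ± 0.335 (adjusted p = 0.991), where 0.374% of probe sets were called. Changes of several standard errors could go uncalled here, and a call also needed a log2 difference of at least 1. EXPA7, for example, differed by 1.93 ± 0.592 in this comparison and was not called (limma adjusted p = 0.229).

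TUB6 and TUA6 at each later time overlapped their values at 0 h. TUB6 read 724, 597.8, 684.7 and 734 at 5 h (685 ± 62, SD, n = 4), and 989.4, 679.7, 566.1 and 1052.9 at 13 h (822 ± 236). At 22 h its arrays read 213, 665.6, 651, 667.4 and 641.5 (568 ± 199, n = 5), and array 1, the one of high median signal, stood far below the other 4. TUA6 read 1253.6, 1996.3, 1259.9 and 1574.6 at 5 h (1521 ± 350), and 1282.7, 1319.9, 1831.6 and 2146 at 13 h (1645 ± 417). At 22 h it read 641.9, 1594.1, 853.3, 1492.2 and 1152.4 (1147 ± 406, n = 5), with array 1 again the lowest. The differences from 0 h lay between -0.41 and 0.15 for TUB6 and between -0.23 and 0.32 for TUA6. These values depend on stump array 1 at 0 h, the lowest of its group for both genes. Without it the differences at 5 h, 13 h and 22 h were -0.59, -0.37 and -0.94 for TUB6 and -0.24, -0.14 and -0.69 for TUA6, so that the sign turned for TUB6 at 13 h and for TUA6 at 5 h and 13 h. Without the 4 arrays of high median signal they were -0.71, -0.49 and -0.76 for TUB6 (SE 0.224) and -0.61, -0.5 and -0.87 for TUA6 (SE 0.256). Without stump array 3 at 0 h, the highest of its group for both, TUB6 differed by 0.21 at 5 h and 0.42 at 13 h, and TUA6 by 0.53, 0.64 and 0.09 at the 3 times. From 13 h to 22 h the log2 differences were -0.68 for TUB1, -0.15 for TUB5, -0.57 for TUB6 and -0.55 for TUA6, with 0.0176% of probe sets called.

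**Figure D3:**
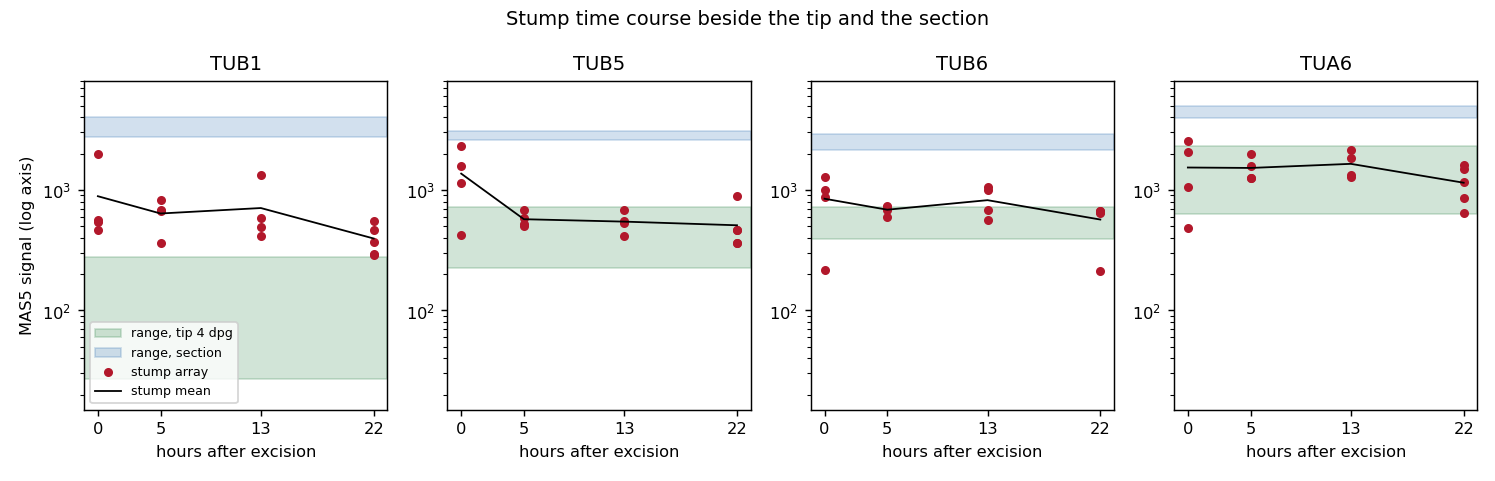
Each panel plots the signal of 1 gene (log axis) on each stump array against hours after excision (0, 5, 13 and 22), with a line through the means, beside the range of the tip at 4 dpg in green and of the section in blue. The stump values of TUB1 lie above the tip range at every time. Those of TUB5 overlap it at every time, at 0 h through array 1 only, and none of the 4 genes reaches the section range.

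Array 1 at 13 h and arrays 2 and 3 at 22 h, those of high EXPA7 signal, read 657.3, 704.7 and 587.4 for that gene, where the other arrays of the 2 groups read 46.2 to 138.6. EXPA18, also an expansin gene of root hairs, read 358.1, 601.2 and 338.4 on the same 3 arrays. The same arrays held the highest TUB1 values of their groups, 1342.1 at 13 h and 557 and 469.1 at 22 h, and array 2 at 22 h held the highest TUB5 value. The section, where TUB1 was highest, read only 11.1 to 73.3 for EXPA7. Without these 3 arrays, a choice made after the data were seen, TUB1 minus its value at 0 h was -0.55 at 13 h and -1.14 at 22 h, and TUB5 -1.17 and -1.48. The part of root hair cells in the stump values was not tested.

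Of 15 alpha- and beta-tubulin genes listed, 7 had a probe set of 1 gene: the 4 described above and TUA1, TUB7 and TUB9. The other 8 had none, and 2 of those, TUA3 and TUA5, were present only in a probe set of several genes. Of the 3 further genes, 1 was called in the section against the stump at 0 h and 0 of 3 in each of the other 11 comparisons by limma, with 9 of the 36 pairs of gene and comparison at an unadjusted p under 0.05. Over all probe sets 10.2% were called in the section against the stump at 0 h, and from 0% to 17.8% in the other 11 comparisons. Taken over the 12 comparisons, 4.82% of all pairs of probe set and comparison were called. The 9 pairs were 25% of the 36, beside 15.8% over all probe sets.

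TUB9, a further beta-tubulin, was highest in the section as well. It read 1704.9, 1803.3 and 2356.2 there (1955 ± 351, SD, n = 3), and no other array exceeded 1516.8. It was higher in the section than in the stump at 0 h (924 ± 89, n = 4) by 1.05 ± 0.184 on the log2 scale (limma adjusted p = 0.000272). This call is at the edge of the size threshold: the difference was 0.99 without array 4 of the stump, 0.91 without section array 3 and 0.85 with quantile normalization. With only these 2 groups in the model the adjusted p was 0.0504. Unlike TUB1 and TUB5, TUB9 had high means at 8 dpg, 1431 ± 117 in the tip and 1293 ± 123 in the stump, and its differences from the section were -0.43 ± 0.197 (adjusted p = 0.136) and -0.57 ± 0.197 (adjusted p = 0.0332, below the size threshold).

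TUB7, another beta-tubulin, had no peak in the section. Its section arrays read 710.7, 842.2 and 841.6 (798 ± 76, SD, n = 3), beside 590.5 to 816.5 in the stump at 0 h, 903.2 to 1407.2 in the tip at 8 dpg and 1164.6 to 1504.8 in the stump at 8 dpg. Both 8 dpg groups were above the section without overlap, by 0.58 ± 0.262 (limma adjusted p = 0.127) and 0.65 ± 0.262 (adjusted p = 0.0763), and neither passed the test. The section minus the stump at 0 h was 0.18 ± 0.245 (adjusted p = 0.663). Its highest group mean was 1.81 times its lowest. TUA1, known as an alpha-tubulin of pollen, was dim in every group, with means of 35 to 68.

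Across the 8 group means, the log2 signal of TUB1 ran with those of TUB5 (r = 0.899) and TUB6 (r = 0.811) and little with that of TUA6 (r = 0.309). TUB5 and TUB6 had r = 0.89, TUB6 and TUA6 r = 0.799, and TUB5 and TUA6 r = 0.503. TUA6 was closest to TUB9 (r = 0.918), and TUB1 and TUB7 ran in opposite directions (r = -0.813). These 8 points include the section, which was highest for 5 of these 6 genes, and 4 of them are stump times of seedlings of 1 age, so the values are descriptions.

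**Figure D4:**
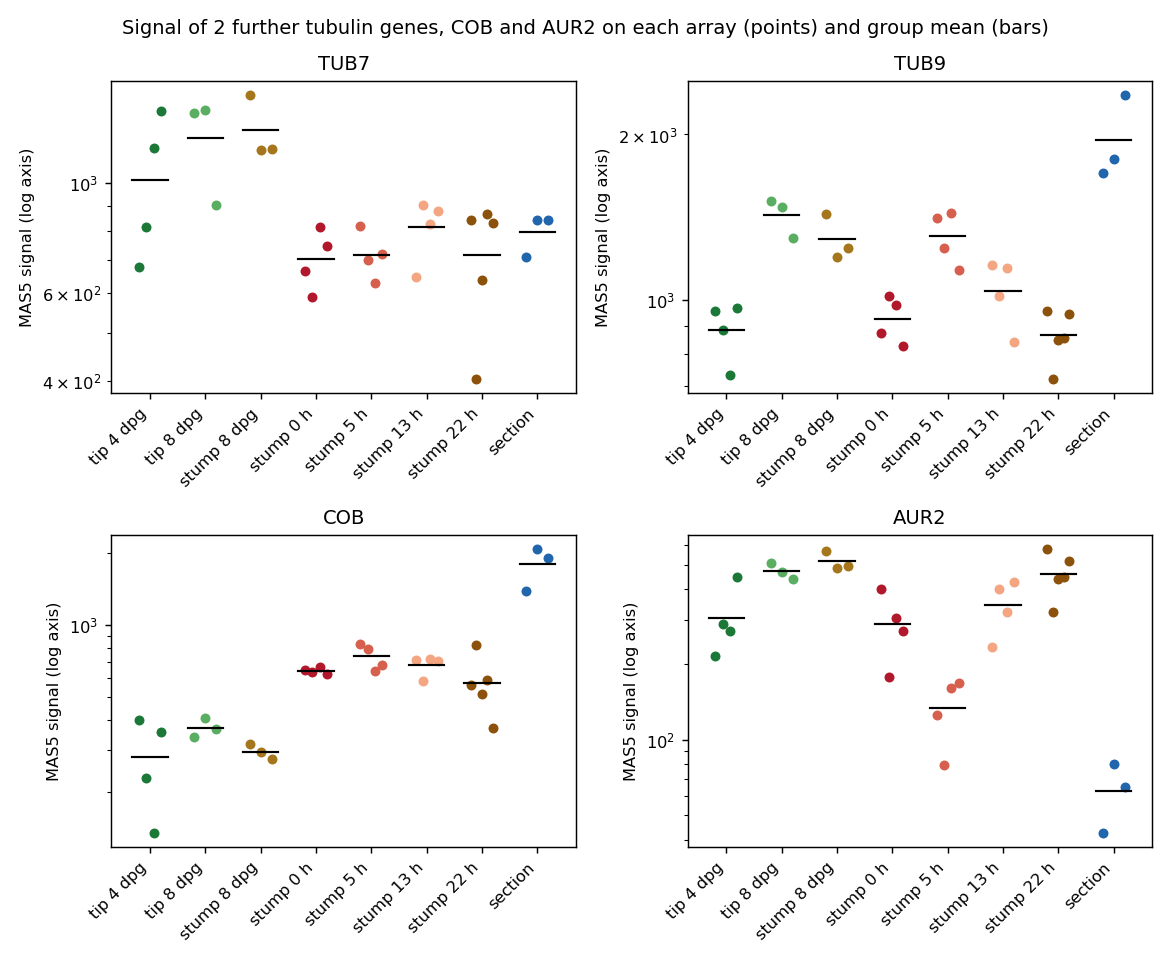
Each panel plots the MAS5 signal (log axis) on every array as points, with a bar at the group mean, for TUB7, TUB9, COB and AUR2 in the 8 groups. TUB9 and COB have all 3 section arrays above every other array, AUR2 has its lowest group mean there (63), and TUB7 has its highest group means at 8 dpg (1233 and 1280).

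Among the genes listed as partners of microtubules, few had a probe set of 1 gene. Of the 9 genes of primary-wall cellulose synthesis 1 was measured, COB, which encodes the COBRA protein needed for oriented cellulose deposition in expanding root cells. COB read 1384.7, 2082.6 and 1915.1 in the section (1794 ± 364, SD, n = 3) and 641 ± 19 (n = 4) in the stump at 0 h, and was higher in the section by 1.42 ± 0.25 (limma adjusted p = 0.000271). It was lower at 8 dpg than in the section, with a difference of -2.16 ± 0.267 for the tip (adjusted p = 2.04e-07) and -2.47 ± 0.267 for the stump (adjusted p = 1.58e-08). COB was also lower in the tip at 4 dpg than in the stump at 0 h (difference -1.21 ± 0.231, adjusted p = 0.00203). That call was lost with only the 2 groups in the model (adjusted p = 0.225) and without tip array 3, where the difference was -0.94. In the stump at 22 h COB was higher than in the tip at 4 dpg by 1 ± 0.219 (adjusted p = 0.00492), with overlapping arrays. This call was at the very edge of the size threshold. It was lost with only the 2 groups in the model (adjusted p = 0.131). The difference fell below 1 without tip array 2 (0.95) or 3 (0.73) and without stump array 2 (0.87) or 4 (0.98). It was also below 1 with a pseudocount of 64 (0.92), median centring or array weights (both 0.97). The group means of COB and TUB1 had r = 0.939.

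Of the 24 microtubule-associated genes 2 were measured. SPR1, a protein of growing microtubule ends that is needed for straight cell expansion, was lower in the tip at 8 dpg (1224 ± 120, SD, n = 3) than in the section (3114 ± 508, n = 3), with a log2 difference of -1.32 ± 0.34 (limma adjusted p = 0.00434). The stump at 8 dpg minus the section was -1.3 ± 0.34 (adjusted p = 0.00473). Against the stump at 0 h SPR1 was not called, with a section minus stump of 0.44 ± 0.318 (adjusted p = 0.371) and overlapping arrays. TON1B, a protein needed for the preprophase band and for ordered cortical arrays, was higher in the section (926 ± 215) than in the stump at 0 h (394 ± 211, n = 4) by 1.29 ± 0.385 (adjusted p = 0.0229). Against 8 dpg tissue it was not called. Its differences from the section there were -1.12 ± 0.411 for the tip (adjusted p = 0.0504) and -1.09 ± 0.411 for the stump (adjusted p = 0.057). The TON1B call was lost without stump array 1 or 2 or section array 1 or 3 (adjusted p = 0.063 to 0.109), and the difference was 0.63 (adjusted p = 0.325) without the 4 arrays of high median signal. The SPR1 differences at 8 dpg and the TON1B difference from the stump at 0 h were the 3 calls among 24 pairs of gene and comparison. Those comparisons called 17.3%, 17.8% and 10.2% of all probe sets. An unadjusted p under 0.05 was found in 7 of the 24 pairs (29.2%), beside 15.8% over all probe sets.

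The 3 Aurora kinase genes AUR1, AUR2 and AUR3, which act in mitosis, were the measured members of a list of 16 mitotic genes. In the comparisons with the section they differed in the opposite direction to TUB1. AUR2 read 42.6, 80.2 and 65.2 in the section (63 ± 19, SD, n = 3), 472 ± 36 (n = 3) in the tip at 8 dpg and 290 ± 92 (n = 4) in the stump at 0 h. All 3 were higher in the tip at 8 dpg than in the section, by 1.81 to 2.43 on the log2 scale, with limma adjusted p from 1.08e-07 for AUR2 to 5.74e-06 for AUR3. They were likewise higher in the stump at 8 dpg than in the section, by 1.67 to 2.55. In the section against the stump at 0 h they were lower, with differences of -1.43 ± 0.319 for AUR1, -1.74 ± 0.271 for AUR2 and -1.51 ± 0.256 for AUR3 (adjusted p = 0.00292, 7.11e-05 and 0.000177). These comparisons with the section, in the order given, called 17.3%, 17.8% and 10.2% of all probe sets. AUR2 was also called between 13 h and 5 h (1.2 ± 0.251, adjusted p = 0.017), a call lost without array 2 of the 5 h stump or array 2, 3 or 4 of the 13 h stump (adjusted p = 0.0503 to 0.106), and also with quantile normalization (0.0512) and median centring (0.0683). The tip at 4 dpg minus the stump at 0 h, -2.81 for TUB1, was 0.5 for AUR1, 0.08 for AUR2 and 0.32 for AUR3. None of the 3 was called there (limma adjusted p = 0.43, 0.926 and 0.549). The stump at 22 h minus that tip, 1.93 for TUB1, was 0.01, 0.56 and -0.74 in the same order. Again none was called (adjusted p = 0.992, 0.203 and 0.051). These 2 comparisons called 2.17% and 3.43% of all probe sets. The group means of TUB1 had r = -0.891 with those of AUR1, -0.79 with AUR2 and -0.881 with AUR3.

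No measured gene for folding tubulin or for starting new microtubules was called. Of 19 listed genes for chaperonin, prefoldin and tubulin-folding cofactors 10 were measured, and 0 of 10 were called by limma in any of the 12 comparisons, while 15 of the 120 pairs of gene and comparison had an unadjusted p under 0.05. That is 12.5% of the pairs, beside 15.8% over all probe sets in the same comparisons, where 4.82% of pairs were called. Though uncalled, 9 of 10 were higher in the tip at 4 dpg than in the stump at 0 h (median 0.41, against -0.04 over all probe sets). In the tip at 8 dpg minus the section 9 of 10 were positive (median 0.44 against 0.05). In the stump at 22 h minus the tip at 4 dpg 0 of 10 were (-0.57 against -0.01). The section minus the stump at 0 h was positive for 8 of 10 (0.12 against -0.23). The single measured gene of 9 for gamma-tubulin and nucleation, GCP2 (AT5G17410), was not called either, and its section minus stump at 0 h was -0.02 ± 0.332 (adjusted p = 0.977). Neither gamma-tubulin gene had a probe set of 1 gene. In the actin list 2 of 8 genes were measured: ACT11 was lower at 8 dpg than in the section, with differences of -1.53 ± 0.25 for the tip (adjusted p = 1.97e-05) and -1.1 ± 0.25 for the stump (adjusted p = 0.00119). The second of these was -0.97, short of the size threshold, without section array 2. ACT12 was not called.

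Between the tips of the 2 ages, 0.444% of probe sets were called. TUB6 and TUA6 had differences of 0.18 ± 0.368 and 0.52 ± 0.39 for 8 dpg minus 4 dpg, and TUB5 of -0.53 ± 0.362. All 3 overlapped between the ages. The highest TUB1 array at 8 dpg read 25.1 and the lowest at 4 dpg 27.2, signals too dim for their order to be read.

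The probe sets whose 8 group means were most like those of each gene were sought among 4869 with 1 gene, enough signal and a range of group means of at least 1 on the log2 scale. For TUB1 these were AT5G42860 (r = 0.997), AT1G62480 and AT4G30170 (both 0.993), AT3G24210 (0.992) and AT1G19450 (0.991). Picked as the highest of 4869 over 8 points, such r values are high in part by selection. Over the 30 single arrays, the same ones that make up the group means, these 5 genes ranked between 5 and 16. For TUB5 they were AT1G31730 (0.989), AT5G44530 (0.988), AT1G65010 (0.987), AT4G38640 (0.984) and AT2G36300 (0.984). Over single arrays the likeness of AT1G31730 (r = 0.522, rank 680) and AT2G36300 (r = 0.674, rank 275) to TUB5 was weaker, while the other 3 ranked between 3 and 29.

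For TUB6 the most alike were AT4G24760 (r = 0.996), AT5G18900 and AT3G27230 (both 0.99), DRT100 (AT3G12610, 0.988) and AT5G45510 (0.985). Over single arrays AT3G27230 had rank 248 (r = 0.672) and AT4G24760 rank 45, while AT5G18900 and AT5G45510 had ranks 5 and 7. DRT100 ranked 1 over the 30 arrays, with a mean signal of 3730 in the section, 1470 in the stump at 0 h and 922 in the tip at 8 dpg. For TUA6 they were AT2G27900 (0.974), AT4G30600 (0.973), AT1G69030 (0.967), AT4G34960 (0.962) and AT1G76920 (0.956), and over single arrays these ranked between 11 and 60. No gene was named for more than 1 of the 4 tubulin genes.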

How the data were processed

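The authors deposited linear MAS5 signal intensities, 1 value for each of the 22746 probe sets on each of the 30 arrays. MAS5 is named per the submitters' processing notes, without a version. Scanner files without measurements were not used. Group means of log2(signal + 32) were fitted jointly for the 8 groups with limma 3.58.1 (R 4.3.3; lmFit and contrasts.fit, then eBayes with trend=TRUE). P-values were adjusted by Benjamini-Hochberg over 22746 probe sets, and a probe set was called when this p was under 0.05 and its log2 difference was 1 or more in size. Of the 12 comparisons, 5 use the stump at 0 h. The model was tested on simulated data. The number of arrays limits the precision. Plots were drawn with matplotlib.

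The platform table listed 14016 probe sets, 13513 with 1 gene and 503 with several, and 8730 were unnamed here. Of those with 1 gene, 13436 were matched to RefSeq. The genes described and all lists were chosen with earlier results of these data known, so no p-value is given for the 4 genes in a contrast that may have chosen them. From the lists, every further tubulin gene and up to 3 called genes per comparison were named, by smallest p. The 5 most alike genes were taken by Pearson correlation over the 8 group means. Arrays of the same replicate number in different groups gave correlations of deviations from -0.191 to 0.628 (median -0.0007, 94 pairs). Arrays of other numbers gave -0.481 to 0.377 (median 0.000467, 298 pairs). The medians show no general pairing by number, but the highest value was between same-numbered arrays. Array 1 of the tip at 4 dpg and of the stump at 0 h and 22 h also shared a high median signal. Whether some same-numbered arrays were handled together was not tested. No sequence is shown.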

Additional observations from a re-analysis of the deposited data

Results flagged for a closer look

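Single arrays stood far from the rest of their group in 4 of the 35 combinations of tubulin gene and group that held 4 or 5 arrays, where chance flags about 1 in 20. TUB1 read 1972 on array 2 of the stump at 0 h, against 467.6 to 565.1 on the other 3. TUB5 read 885.6 on array 2 of the stump at 22 h, the array with the highest EXPA7 signal of that group. TUB6 read 213 on array 1 of the stump at 22 h, an array of high median signal, against 641.5 to 667.4 on the other 4. TUA1 read 12.2 on array 1 of the stump at 5 h, and is dim throughout. The cause was not tested.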

How the results depend on the processing

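For TUB1, TUB5, TUB6 and TUA6, 521 of 528 differences recomputed under another processing choice moved by less than the spread between arrays. Some choices cannot move a difference at all: no trend in eBayes, only the 2 groups in the model, or dim probe sets left out. This count therefore overstates how stable the differences were. Leaving out 1 array cannot move a difference by more than this spread, so the 364 such values staying within it was fixed in advance. The 7 others were TUA6 without the 4 arrays of high median signal (-0.61 at 5 h and -0.5 at 13 h against 0 h, and 0.95 for the section against 0 h) and TUB1 against the section with a pseudocount of 1 (-7.11 for the tip and -7.28 for the stump at 8 dpg) or 64 (-5.28 and -5.22). Several small differences of TUB1, TUB6 and TUA6 from the stump at 0 h changed sign when an array at 0 h was left out, with values beside the time course. The count of further tubulin genes called in the section against the stump at 0 h, 1 of 3, was 0 with quantile normalization and with only the 2 groups in the model, and 0 to 1 with 1 array left out. With the replicate block the TUB1 tip minus stump at 0 h was -2.81 ± 0.42, and the block changed no call of a named gene. Without the 3 arrays of high EXPA7 signal, left out after the data were seen, COB at 22 h against the tip had an adjusted p of 0.0754 (limma). Counts over all probe sets, lowest and highest over all settings, were 54 and 989 for the tip at 4 dpg against the stump at 0 h (494 in the model of all arrays), 139 and 1078 at 5 h (599), 166 and 842 at 13 h (450), 77 and 670 at 22 h (335) and 569 and 3478 for the section against that stump (2318). Each of these lowest counts came from the model of only the 2 groups. They were 38 and 186 between 13 h and 5 h (85), 0 and 10 between 22 h and 13 h (4), 25 and 375 between the tips (101), 0 and 39 between tip and stump at 8 dpg (0) and 274 and 1481 for 22 h against the tip (780). Both comparisons of 8 dpg tissue with the section stayed within 1.5 times (3219 to 4470 and 3378 to 4613). With few arrays a group and MAS5 signals near the array median, the order of dim values is not determined.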

Other observations

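The difference between tip and stump was compared between 4 dpg and 8 dpg for the 22 listed genes other than the 4 described above. COB had the lowest adjusted p (limma, 0.0576), with a difference of -1.51 ± 0.353 (log2) between the tip effects at the 2 ages. The values for TUB7 and TUB9 were 0.53 ± 0.347 (adjusted p = 0.906) and -0.21 ± 0.26 (adjusted p = 0.98).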
